A study of Arabidopsis thaliana with 6 samples.

Results

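The circadian clock genes examined here are 10 Arabidopsis thaliana genes, chosen by name from 32947 genes measured in each leaf library. They were chosen with earlier results of these data known. They are CCA1, LHY and RVE8 (morning MYB factors), PRR9, PRR7, PRR5 and TOC1 (pseudo-response regulators), and GI, ELF4 and LUX (evening genes). All 10 were measured and all 10 passed the filter of at least 1 RPKM in at least 1 library. RPKM express a gene's reads relative to its length, here the span from start to stop with introns, and to the size of the library.

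The libraries came from leaves 3 weeks old of plants in constant light, all of ecotype Columbia-0. The mutants were nrpe1-11, idn2-1, the triple mutant idn2-1 idnl1-1 idnl2-1 and the double mutant idnl1-1 idnl2-1, with 1 library each, and wild type (WT) had 2 libraries. The mutated genes act in RNA-directed DNA methylation, in which small RNAs guide DNA methylation; NRPE1 forms the core of RNA polymerase V, IDN2 binds RNA in that pathway, and IDNL1 and IDNL2 are its relatives. No label says whether the WT libraries came from separate plants, so the p-values reflect how much these samples differ, perhaps for technical reasons, and not how plants differ. A mutant level rests on a single library, and each mutant was assumed to vary as the WT pair does.

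The plant clock is a set of transcription factors that repress and activate each other in sequence through the day. CCA1 and LHY are made around dawn and repress evening genes, the PRR proteins follow in turn and repress CCA1 and LHY, and ELF4 and LUX form with ELF3 an evening complex that represses PRR9 among others. RVE8 activates evening genes, and GI is an evening protein that stabilises the F-box protein ZTL, which marks TOC1 for breakdown. Rhythms persist in constant light, and clock transcripts then still rise and fall with time. No label gives the hour of harvest, so a change in level and a change in phase cannot be told apart. Nor can fewer cells of a type be told apart from less RNA per cell, since leaf RNA was measured in bulk.

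Depth was 2793873 to 3078153 reads in nrpe1, idn2 and the triple mutant and 5819494 reads in the double mutant, against 2737943 reads in WT replicate 1 and 5975802 in WT replicate 2. Each mutant was therefore also set beside the WT library of its own depth; depth and any unlabelled batch cannot be told apart. The leaf markers RBCS1A, LHCB1.3, RCA and CAB3 had 254 to 344 RPKM in nrpe1, idn2 and the triple mutant and 146 to 195 in the double mutant. They had 278 to 337 in WT replicate 1 and 140 to 197 in WT replicate 2. Reads of RBCS1A hardly rose with depth: 995 to 1081 in the shallower libraries, 1147 in the double mutant and 1125 in WT replicate 2. RPKM of the most abundant genes therefore do not compare between depths, and the cause was not tested. How far down in level this reaches was not tested either. The library labelled nrpe1 stood apart in markers of other tissues: the floral gene AP1 had 2.5 RPKM there (30 reads) against 0.725 and 1.09 in WT, the floral gene AG 1.3 against 0.445 and 0.615, and the root and hypocotyl gene PYK10 14.5 against 44.7 and 40.0. These values move with the nrpe1 results below, and their part in them was not tested. IDNL1 had 1 read in the triple mutant and 6 reads in the double, against 194 in both WT libraries. IDNL2 had 5 reads in the triple mutant and 11 in the double, against 60 in both WT libraries. NRPE1 had 138 reads in the library labelled nrpe1 and IDN2 118 in that labelled idn2, against 255 and 500 in both WT libraries. Since an allele can leave its transcript in place, these counts do not check those labels.

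In WT leaves the clock genes spanned a wide range of levels, with CCA1 highest and PRR5 lowest. CCA1 averaged 79.4 ± 7.53 RPKM (SD, n = 2, as for all WT means here), PRR7 50.3 ± 0.513, GI 33.0 ± 0.929 and LHY 30.8 ± 1.67. Next came RVE8 at 19.5 ± 1.39 RPKM, PRR9 at 17.0 ± 1.69, LUX at 13.6 ± 1.45 and TOC1 at 11.7 ± 2.74. ELF4 averaged 6.38 ± 2.41 RPKM and PRR5 3.62 ± 0.123. Neighbours in this order did not overlap between WT libraries, except LUX and TOC1. Per kilobase of exons in the TAIR10.1 annotation, the order of the 9 genes with an exon length within the counted span was the same but for ELF4 and PRR5, which changed places (5.99 and 6.20 on the RPKM scale with exon length in place of span). LUX was left out of that order, since its annotated exons there are longer than the span counted.

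**Figure D1:**
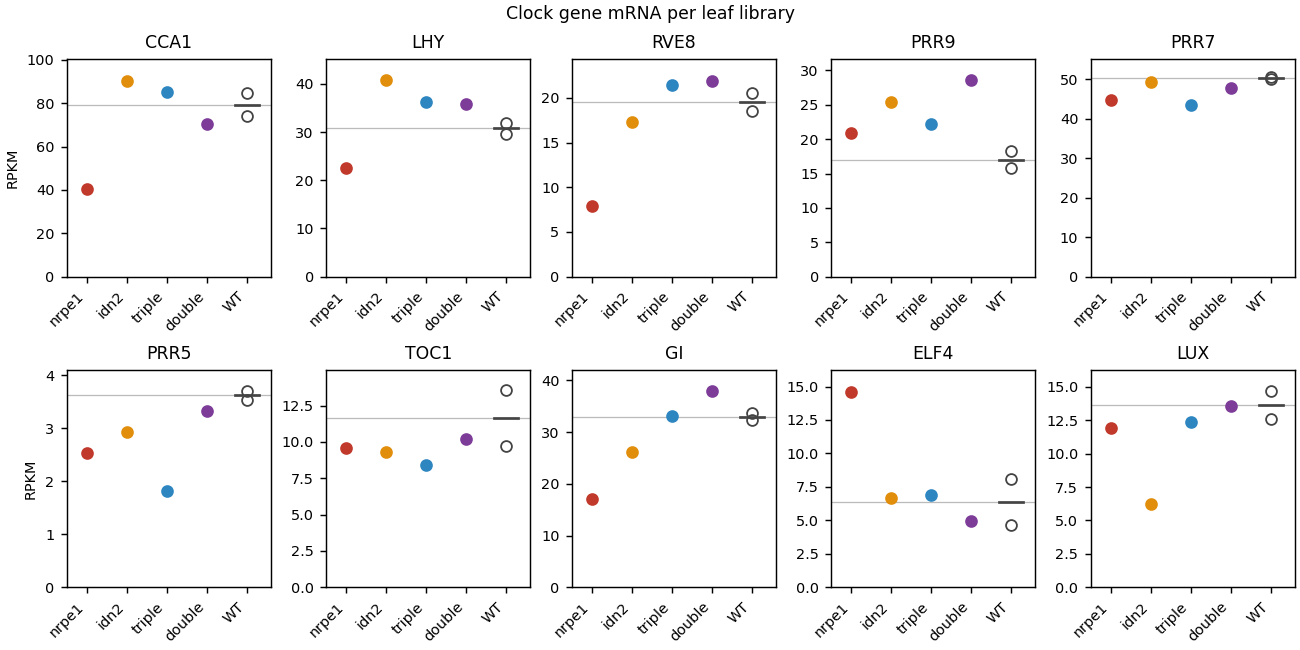
Each panel plots the RPKM of a clock gene on a linear axis from 0 in the nrpe1, idn2, triple mutant and double mutant libraries (filled points, 1 library each) and in the WT libraries (open points, with a bar and a grey line at their mean). CCA1, LHY, RVE8 and GI are lowest in nrpe1, ELF4 is highest there, LUX is lowest in idn2, and PRR9 is above both WT points in every mutant.

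The library labelled nrpe1 was compared with WT to see how clock mRNA differs under the polymerase V allele. Limma called CCA1, RVE8 and GI lower in the library labelled nrpe1, and none of the 10 higher. These 3 calls of 10 genes stand beside 3.26% of all 22362 tested genes called by limma in the same comparison, 2.59% lower and 0.666% higher. The 10 were chosen with earlier results of these data known, so their share does not measure an excess of clock genes. Nrpe1 was the lowest of the 6 libraries for 4 of the 10 genes, as it was for 19.2% of all tested genes. RVE8 was the 1 gene at least 2-fold below each WT library, a size that 3.66% of all tested genes met in that direction. The median log2 change was -0.31 over the 10 genes and 0.02 over all tested genes.

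CCA1 (AT2G46830, TAIR8 chromosome 2, 19252741 to 19255978), a MYB repressor of evening genes, had 40.3 RPKM in nrpe1, against 84.7 and 74.1 RPKM in WT. The nrpe1 value lay below both WT values and below those of the other 3 mutants, which ran between 70.5 and 90.4 RPKM. Outside nrpe1, CCA1 split by depth. The deeper libraries had 70.5 RPKM (double mutant) and 74.1 (WT replicate 2). Idn2, the triple mutant and WT replicate 1 had 90.4, 85.0 and 84.7 RPKM. The mean and spread of CCA1 in WT therefore include a difference in depth, whose part was not tested. On the log2(RPKM + 1) scale CCA1 fell by 0.96 (SE 0.26, limma adjusted p = 0.0110). In reads, 405 in nrpe1 against 2199 in both WT libraries gave a ratio of 0.521 per total reads (exact 95% binomial interval 0.468 to 0.58), and against the WT library of the same depth the ratio was 0.475 (0.42 to 0.536). Such intervals cover counting error only. The call was lost with median-of-ratios scaling (adjusted p = 0.201) and with no intensity trend in the spread (0.172), at log2 changes of -0.92 and -0.96; over the 7 settings the adjusted p ran between 0.00288 and 0.201.

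RVE8 (AT3G09600, chromosome 3, 2946411 to 2949000), the activator among the MYB factors, had 7.95 RPKM in nrpe1, against 18.5 and 20.5 RPKM in WT. Idn2, at 17.3 RPKM, also lay below both WT values but close to them, and the triple and double mutants, at 21.5 and 21.8 RPKM, lay above both. RVE8 fell by 1.20 (SE 0.26, limma adjusted p = 0.000436), the largest of the 10 genes in any mutant against the WT mean; against the WT library of equal depth ELF4 in nrpe1 differed by more. Its read ratio was 0.396 (0.299 to 0.517), with 63 reads against 450, and 0.425 (0.309 to 0.577) at equal depth. RVE8 passed in all 7 other settings of the test, at adjusted p from 3.58e-05 to 0.0330.

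LHY (AT1G01060, chromosome 1, 33666 to 37840), the close relative of CCA1, had 22.6 RPKM in nrpe1, against 29.6 and 31.9 RPKM in WT. It too was lowest in nrpe1, but the difference of -0.43 (SE 0.22) did not pass limma (adjusted p = 0.545). The ratio of CCA1 to LHY within a library, in which the library's scaling cancels, was 1.79 in nrpe1, against 2.87 and 2.32 in WT; that of RVE8 to LHY was 0.352 in nrpe1, 0.424 in idn2, 0.593 in the triple mutant and 0.609 in the double, against 0.627 and 0.642 in WT.

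GI (AT1G22770, chromosome 1, 8061833 to 8067705) had 17.0 RPKM in nrpe1, against 32.3 and 33.6 RPKM in WT. Among the other mutants idn2 had 26.1 RPKM, the triple mutant 33.2 and the double mutant 37.9, so nrpe1 was lowest and idn2 next. GI fell by 0.91 in nrpe1 (SE 0.22, limma adjusted p = 0.00166), with a read ratio of 0.513 (0.453 to 0.579) and of 0.525 (0.455 to 0.606) at equal depth. Without the intensity trend the adjusted p was 0.220, the highest of 7 settings, the lowest being 0.000792.

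ELF4 (AT2G40080, chromosome 2, 16741372 to 16741990), a small protein of the evening complex, had 14.6 RPKM in nrpe1, against 4.67 and 8.08 RPKM in WT. Nrpe1 was the highest library, while the other mutants, at 4.98 to 6.87 RPKM, lay between the WT values. The log2 difference of 1.12 (SE 0.49) did not pass limma (adjusted p = 0.338), but passed with median-of-ratios scaling (0.0152) and with quantile normalization (0.0146), the lowest of 7 settings, the highest being 0.306. It rests on 27 reads against 7 and 29 in WT, a ratio of 2.12 (1.24 to 3.6) to both WT libraries and of 3.43 (1.46 to 9.33) at equal depth, so the low depth of this short gene limits its size. Relative to GI in the same library, ELF4 stood at 0.855 in nrpe1, 0.131 to 0.255 in the other mutants, and 0.145 and 0.24 in WT.

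LUX, PRR7, PRR5, TOC1 and PRR9 differed by -0.17, -0.16, -0.39, -0.24 and 0.29 in nrpe1 and did not pass limma (adjusted p = 0.998 each). Their read ratios at equal depth had intervals that included 1 for LUX (0.623 to 1.44), PRR7 (0.796 to 1.01), PRR5 (0.369 to 1.22) and TOC1 (0.737 to 1.32), but not for PRR9 (1.03 to 1.71). Against both WT libraries the intervals did not include 1 for PRR7 (ratio 0.89, 0.809 to 0.979) and TOC1 (0.773, 0.616 to 0.964), and did for LUX (0.605 to 1.17), PRR5 (0.413 to 1.11) and PRR9 (0.992 to 1.45), so for PRR7, TOC1 and PRR9 the reading depends on the WT library used.

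**Figure D2:**
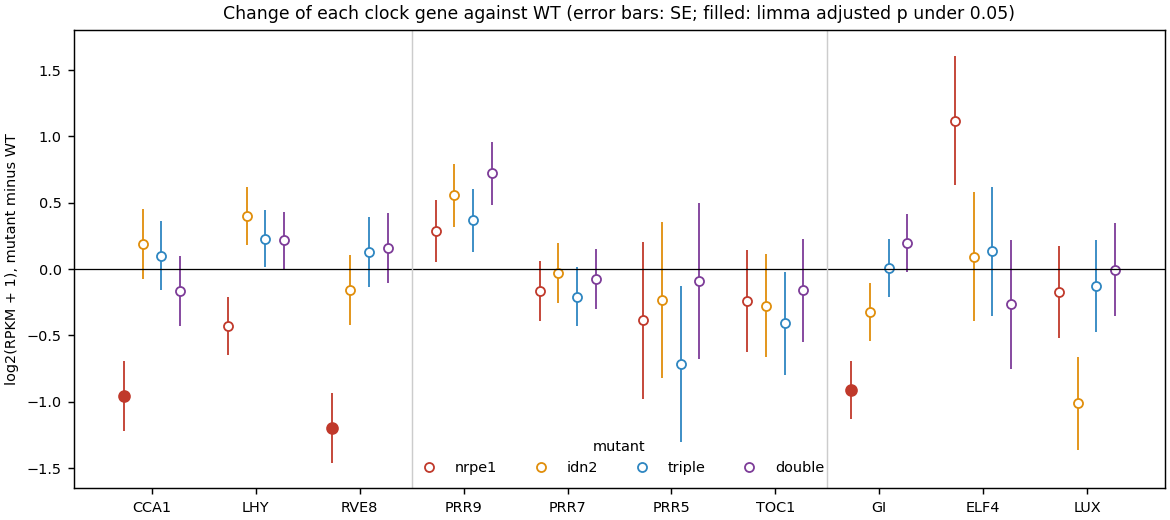
Difference of log2(RPKM + 1) between each mutant and the WT mean for the 10 clock genes, with SE bars; filled points passed limma at an adjusted p under 0.05, and vertical lines part the MYB factors, the PRR family and the evening genes. The filled points are CCA1 (-0.96), RVE8 (-1.20) and GI (-0.91), all in nrpe1.

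**Figure D3:**
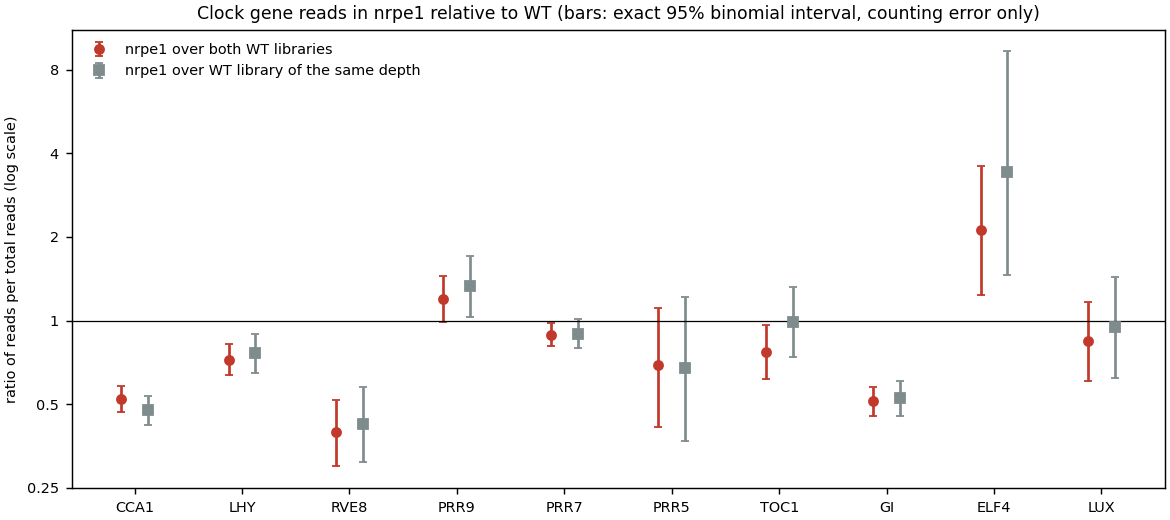
Ratio of a clock gene's share of reads in nrpe1 to its share in WT, on a log axis, against both WT libraries (circles) and against the WT library of the same depth (squares), with exact 95% binomial intervals for counting error only. CCA1, LHY, RVE8 and GI lie below 1 by either measure and ELF4 above 1.

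Among the single mutants the idn2 library showed a low LUX level, and none of the 10 genes passed limma against WT. LUX (AT3G46640, chromosome 3, 17194075 to 17195449, symbol PCL1 in RefSeq) is the MYB-like DNA-binding member of the evening complex. It had 6.24 RPKM in idn2, against 12.6 and 14.7 RPKM in WT. The other mutants had 11.9 RPKM in nrpe1, 12.4 in the triple mutant and 13.6 in the double, so idn2 alone was low. LUX was at least 2-fold below each WT library, as were 2.95% of all tested genes in idn2. Its log2 difference of -1.01 (SE 0.35) had a limma adjusted p of 0.166, and passed with median-of-ratios scaling (0.00557) and quantile normalization (0.0272), though not in the other settings, where it reached 0.379. The value rests on 24 reads against 47 and 120, a ratio of 0.434 (0.271 to 0.668) to both WT libraries and of 0.485 (0.283 to 0.809) at equal depth.

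PRR9 differed by 0.56 (SE 0.24, limma adjusted p = 0.528) in idn2 and passed under the same 2 scalings (0.0259 and 0.0428), though not in the other settings, where it reached 1.00. CCA1, LHY and RVE8 had 90.4, 40.9 and 17.3 RPKM in idn2 and differed from WT by 0.19, 0.40 and -0.16. With limma 0 of 10 genes were called, 2 had an unadjusted p under 0.05, and voom on the reads called 0. Over all 22362 tested genes limma called 1.66% in this comparison, and 1192 had an unadjusted p under 0.05.

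The single mutants have similar depth, and they were compared directly. CCA1 was lower in nrpe1 than in idn2 by 1.15 (SE 0.30, limma adjusted p = 0.0325), the 1 call of 10 genes, where 0.528% of all tested genes were called. RVE8 differed by -1.04 (adjusted p = 0.112) and LHY by -0.83 (adjusted p = 0.128). Both passed with median-of-ratios scaling (0.00328 and 0.0322), where CCA1 did not (0.315), and all 3 passed with quantile normalization (0.0230, 0.0459 and 0.0200). CCA1 lost its call also with no filter on low values (0.0686) and with no intensity trend (0.445). GI differed by -0.59 (adjusted p = 0.984), ELF4 by 1.02 and LUX by 0.84 (adjusted p = 1.00 each, to 3 digits).

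The triple and double mutants lay close to WT in most clock genes. CCA1, LHY and RVE8 had 85.0, 36.2 and 21.5 RPKM in the triple mutant and 70.5, 35.9 and 21.8 RPKM in the double mutant. Their differences from WT ran from -0.17 to 0.23 in these mutants. GI differed by 0.01 in the triple and by 0.20 in the double mutant. In the triple mutant PRR5 (AT5G24470, chromosome 5, 8355954 to 8358876), a repressor of CCA1 and LHY, had the lowest level of the 6 libraries, 1.82 RPKM against 3.71 and 3.53 in WT. That value rests on 14 reads and its difference of -0.71 (SE 0.59) did not pass limma (adjusted p = 1.00 to 3 digits). The triple mutant was the lowest library for 3 of the 10 genes, PRR7, PRR5 and TOC1, as for 21.4% of all tested genes. Size alone put 0 of 10 genes at least 2-fold off each WT library in the triple and double mutants, where it put 2.72% and 1.75% of all genes.

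Limma called 0 of 10 clock genes in the triple mutant, with 0 at an unadjusted p under 0.05. It called 0 in the double mutant, with 1 (PRR9) at that level, and voom called 0 in each. Over all 22362 tested genes limma called 0.300% and 0.344%, and 759 and 609 had an unadjusted p under 0.05. The triple mutant and idn2 differ by the idnl alleles. Between them limma called 0.814% of all tested genes, and 817 had an unadjusted p under 0.05. Of the 10 clock genes limma and voom called 0, with 1 at an unadjusted p under 0.05. That gene was LUX, at 12.4 RPKM in the triple mutant and 6.24 in idn2, a difference of 0.88 (SE 0.40, adjusted p = 1.00 to 3 digits). It passed with median-of-ratios scaling (0.0412) and in none of the other 6 settings (0.0913 to 1.00). Between the triple and the double mutant, which differ by idn2-1 and in depth, limma and voom called 0, with 0 at an unadjusted p under 0.05, beside 0.0581% of all genes.

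PRR9 was higher than both WT libraries in every mutant. PRR9 (AT2G46790, chromosome 2, 19239718 to 19242156), the first of the PRR proteins to appear after dawn, had 21.0 RPKM in nrpe1, 25.4 in idn2, 22.2 in the triple mutant and 28.7 in the double, against 15.8 and 18.2 RPKM in WT. The mutant and WT ranges did not overlap. The 4 mutants as 1 group averaged 24.3 ± 3.46 RPKM (SD, n = 4), against 17.0 ± 1.69 in WT. Their log2 difference from WT was 0.48 (SE 0.15) and did not pass limma over all genes (adjusted p = 0.560, unadjusted 0.00883). An exact two-sided permutation test of 4 against 2 libraries gave p = 0.133, the smallest it can give. Any gene without overlap gets that value, so the test adds nothing to the absence of overlap. Read ratios at equal depth were 1.33 (1.03 to 1.71) in nrpe1, 1.61 (1.26 to 2.07) in idn2, 1.41 (1.09 to 1.82) in the triple and 1.58 (1.35 to 1.85) in the double mutant. Against both WT libraries they were 1.2 (0.992 to 1.45) in nrpe1, an interval that includes 1, 1.46 (1.22 to 1.75) in idn2, 1.27 (1.05 to 1.54) in the triple mutant and 1.64 (1.42 to 1.9) in the double. The equal-depth ratios of nrpe1, idn2 and the triple mutant share WT replicate 1 (106 reads), the lowest library for PRR9, so they are not independent.

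PRR7 (AT5G02810, chromosome 5, 637895 to 641975), the partner of PRR9 in the morning, lay below both WT libraries in every mutant in RPKM as deposited, by a small amount. Its levels were 44.8, 49.3, 43.4 and 47.8 RPKM in nrpe1, idn2, the triple and the double mutant, against 49.98 and 50.7 RPKM in WT. The ratio of PRR9 to PRR7 within a library was 0.468, 0.516, 0.511 and 0.6 in these mutants, against 0.317 and 0.359 in WT, a separation that follows from the levels of each gene and adds nothing to them. The ratio of CCA1 to PRR9 was 1.92, 3.55, 3.83 and 2.46 in the mutants, against 5.35 and 4.06 in WT, without overlap. CCA1 itself overlapped WT, so this separation is not fixed by the ranges of CCA1 and PRR9. The ratio is made from the same values as above, and its separation was not tested.

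PRR5 lay at 1.82 to 3.33 RPKM in the mutants, against 3.53 and 3.71 in WT, also without overlap. TOC1 (AT5G61380, chromosome 5, 24692290 to 24695776), the evening PRR that represses CCA1, had 9.59, 9.34, 8.42 and 10.2 RPKM in nrpe1, idn2, the triple and the double mutant, against 9.73 and 13.6 RPKM in WT, and overlapped. With PRR9 above and PRR7 and PRR5 below, 3 of 10 clock genes had no overlap between mutants and WT in RPKM as deposited. Of all tested genes 10.6% had none (3.11% higher and 7.53% lower in mutants). With median-of-ratios scaling PRR7 in idn2 was above the WT mean, so PRR7 was not below both WT libraries in every mutant there. As 1 group against WT, limma and voom called 0 of 10 clock genes, with 1 at an unadjusted p under 0.05. Over all 22362 tested genes limma called 0.116%, and 1118 had an unadjusted p under 0.05. Depth as a term in that fit called 0 of all tested genes, so its 0 of 10 is nothing particular to the clock genes. Without the nrpe1 library the group difference of CCA1 was 0.04 in place of -0.21 and that of RVE8 0.04 in place of -0.27.

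**Figure D4:**
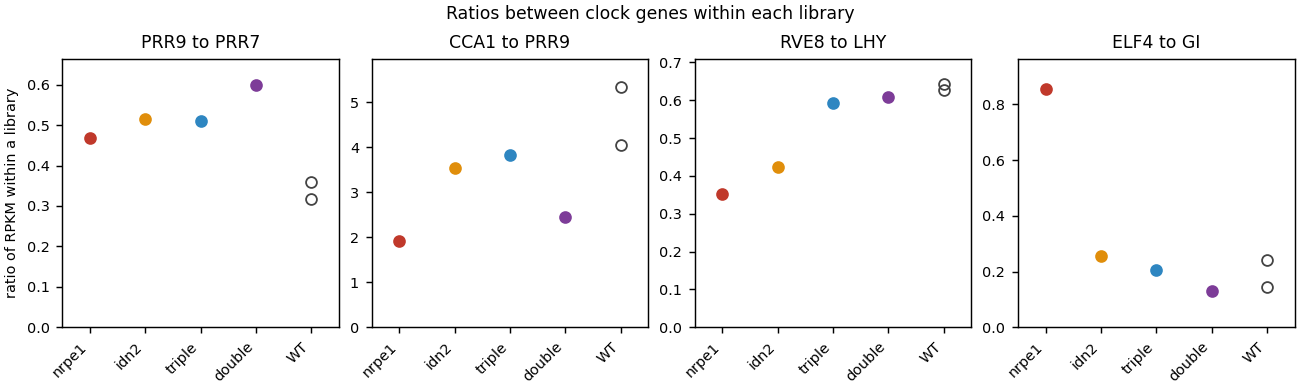
Ratio of the RPKM of one clock gene to that of another within each library, on a linear axis from 0, for the mutants (filled points) and WT (open points). All 4 mutants lie above WT for PRR9 to PRR7 and below WT for CCA1 to PRR9; for ELF4 to GI nrpe1 stands apart at 0.855.

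Around the core, 34 other clock genes were followed. This list and the output and light input lists below were also chosen with earlier results of these data known. In nrpe1 limma called 2 of 34 lower, RVE1 and RVE3, and 0 higher, beside 2.59% of all tested genes called lower. The median log2 change was -0.06 over the list and 0.02 over all tested genes. RVE1 (AT5G17300), a MYB factor of the same family that links the clock to auxin, had 6.25 RPKM in nrpe1, against 28.2 and 31.1 in WT, and 20.1 to 25.8 in the other mutants. It fell by 2.08 (SE 0.24, limma adjusted p = 3.79e-15), and was lower in nrpe1 than in idn2 by 1.78 (adjusted p = 3.4e-07). All 4 mutants lay below both WT libraries for RVE1. RVE3 (AT1G01520), another member of that family, had 1.25 RPKM in nrpe1, against 7.48 and 7.77 in WT, and fell by 1.94 (adjusted p = 0.00522), with 5 reads against 102. RVE1 and RVE3 passed in all 7 other settings. RVE4 (AT5G02840), which acts with RVE8, had 17.4 RPKM in nrpe1 and 21.5 to 23.5 in the other mutants, against 25.5 and 25.3 in WT, and did not pass. AT5G08330, known as CHE, which represses CCA1, had the highest mean level of this list, 105 RPKM in nrpe1 against 126 and 116 in WT, and differed by -0.20 (adjusted p = 0.998). In idn2, the triple and the double mutant 0 of 34 passed limma, with 0, 2 and 1 at an unadjusted p under 0.05. In the same order limma called 1.66%, 0.300% and 0.344% of all 22362 tested genes. Of all tested genes 1192, 759 and 609 had an unadjusted p under 0.05.

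Of 16 clock output genes 14 were tested. In nrpe1 limma called 2 of 14 lower, CDF2 and CDF5, and 0 higher, beside 2.59% of all tested genes called lower and 0.666% higher. The median log2 change of the 14 was 0.12. CDF2 and CDF5 are DOF factors that repress flowering genes and are removed with the help of GI. CDF2 had 5.39 RPKM in nrpe1, against 14.0 and 15.5 in WT, and fell by 1.3 (limma adjusted p = 0.0166). CDF5 had 12.9 RPKM in nrpe1, against 24.2 and 28.7 in WT, and fell by 0.98 (adjusted p = 0.00346), a call lost with voom (0.0526) and with no intensity trend (0.153). Its span overlaps AT1G69572 over 1163 bases, and how strand was treated is not given, so their reads may be shared.

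CDF3, of the same family, moved in the other direction. It had 107 RPKM in idn2, against 54.5 and 58.7 in WT, and rose there by 0.91 (SE 0.27, adjusted p = 0.0404), the 1 call of 14 in idn2, where 0.246% of all tested genes were called higher. Its other levels were 99.0 RPKM in nrpe1 (a difference of 0.80, adjusted p = 0.0773), 66.0 in the triple mutant and 75.1 in the double, all above both WT values. The idn2 call was lost with no filter on low values (0.0748), median-of-ratios scaling (0.283) and no intensity trend (0.337). In the triple and double mutants 0 of 14 passed, with 0 at an unadjusted p under 0.05. Over all 22362 tested genes 0.300% and 0.344% passed, and 759 and 609 had an unadjusted p under 0.05. LHCB1.1, an antenna protein gene and the most abundant of this list, had 254 RPKM in nrpe1 and 162 in the double mutant. WT had 268 and 158, so it was lower in both deeper libraries, as the leaf markers were. Its reads were 927 and 1111 in these mutants, against 871 and 1117 in WT, so its RPKM do not compare between depths.

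Of 9 light input genes, photoreceptors and their partners, limma called HY5 lower in nrpe1 and 0 higher, beside the same shares of all tested genes. HY5, a bZIP factor of light signalling, had 14.2 RPKM in nrpe1, 19.6 in idn2, 32.7 in the triple mutant and 29.1 in the double, against 25.3 and 28.8 in WT. Its change in nrpe1 was -0.89 (SE 0.23, limma adjusted p = 0.00501), with a read ratio of 0.556 (0.406 to 0.756) at equal depth. It did not pass with voom (0.136) or with no intensity trend (0.261). The blue light receptor gene CRY1, the most abundant of the list, had 93.8 RPKM in nrpe1 against 107 and 93.2 in WT and differed by -0.09. The median of the 9 genes in nrpe1 was -0.18, the value of the phytochrome gene PHYC. In the other 3 mutants 0 of 9 passed limma. At an unadjusted p under 0.05 there were 0 in idn2, 2 in the triple mutant and 0 in the double. Over all 22362 tested genes 1.66%, 0.300% and 0.344% passed, and 1192, 759 and 609 had an unadjusted p under 0.05.

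**Figure D5:**
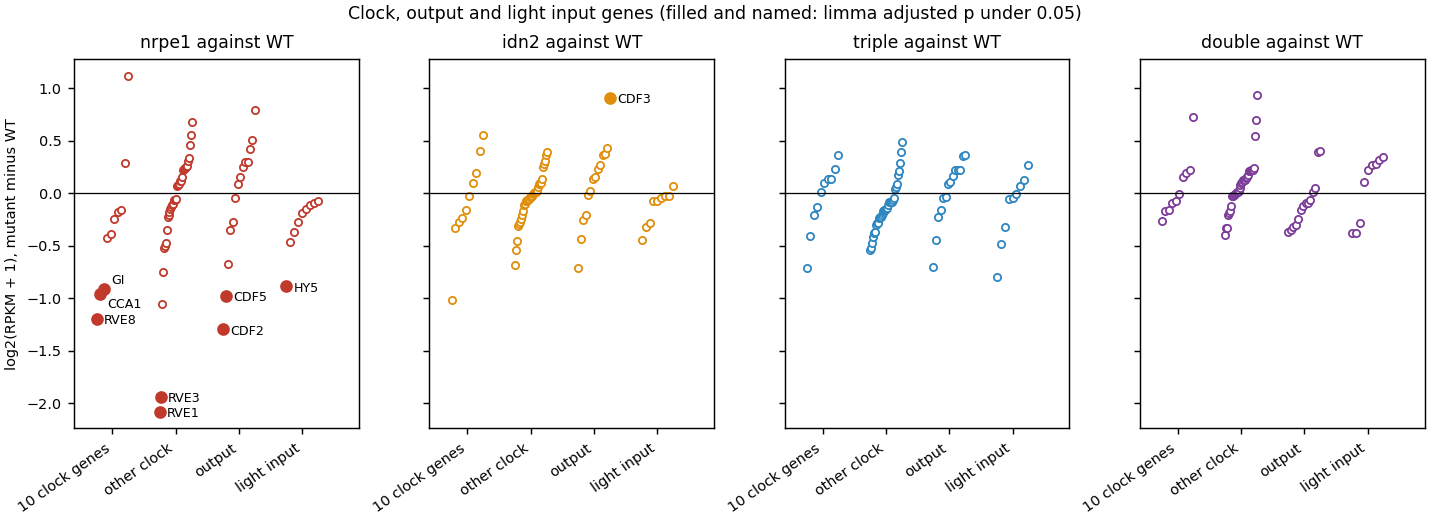
Difference of log2(RPKM + 1) from WT for each tested gene of the 4 lists, in a panel per mutant; genes are sorted within a list, and filled, named points passed limma at an adjusted p under 0.05. Named points appear in the nrpe1 panel, all below 0, and in the idn2 panel (CDF3).

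The genes whose profiles over the 6 libraries were nearest to those of CCA1, RVE8 and GI were sought among 17594 genes with a mean of at least 3 RPKM, by the root mean square difference of log2(RPKM + 1) after centring each gene. AT1G55960 was nearest to CCA1 (0.0513), with 42.1 RPKM in nrpe1, 103, 93.7 and 78.1 in idn2, the triple and the double mutant, against 90.1 and 75.8 in WT. AT1G16022 (0.0878) and ETC2 (0.102) followed. For RVE8 they were AT1G79520 (0.0742), AMT1;2, an ammonium transporter gene (0.0746), and RXW8 (0.0841). For GI they were MTM1 (0.0398), PYE, an iron-deficiency transcription factor (0.0433), and AAP5, an amino acid transporter (0.0492). PYE had 7.3 RPKM in nrpe1 and 11.6 to 17.5 in the other mutants, against 13.4 and 14.6 in WT. These genes were picked for their likeness, so it is a description over 6 libraries.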

How the data were processed

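Leaf mRNA was prepared with an Illumina TruSeq kit, per the labels' protocols. The authors deposited RPKM per gene, in tables named for TAIR8; per the submitters' processing notes, Bowtie was used, with no version stated. How duplicates, reads with several matches and strand were treated: not given in the sources used here.

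In every library 100% of the deposited RPKM times the gene span were whole multiples of 1 step (tolerance 1e-06 steps), never below 1. The lowest value was taken for a single added read and subtracted in all read numbers. Deposited positions were read as counting from 0 and raised by 1; on chromosome 1 this was the commonest offset from TAIR10.1 (21 of 90 genes), so positions can be off by a base. TAIR10.1 served only for symbols (32377 IDs matched) and exon lengths; promoter sequence was not used here, since that genome is of another build.

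Log2(RPKM + 1) values of the 22362 genes that reached 1 RPKM in any library were fitted with limma 3.58.1 in R 4.3.3, with a mean per genotype, an intensity trend and Benjamini-Hochberg adjustment over all genes, called under 0.05. The WT pair gave the single residual degree of freedom and the prior degrees of freedom were infinite, so a gene's own spread does not enter its p-value. Mutants as 1 group had 4 residual and 7.63 prior degrees of freedom. Fold changes on this scale understate low genes. Alternatives were another pseudocount (0.1), other filters, scalings and spreads, voom on recovered reads, and leaving out libraries. Ratios used exact 95% binomial intervals (Python 3.11.15, scipy 1.17.1).

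The 10 genes and the lists were chosen with earlier results of these data known. Named beyond them were listed genes called in any comparison, the most abundant of each list, and the 3 nearest profiles to CCA1, RVE8 and GI; RVE4 and the genes beside ELF4 were added after their values were seen.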

Additional observations from a re-analysis of the deposited data

How the results depend on the processing

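The count of clock genes called in nrpe1 against WT was 3 or 4 in 6 of 7 alternative settings, though with median-of-ratios scaling the 3 were ELF4, GI and RVE8, and it was 1 (RVE8) with no intensity trend, where calls over all genes numbered 643 in place of 728. In idn2 against WT it was 2 (LUX and PRR9) in place of 0 with median-of-ratios scaling and with quantile normalization, where calls over all genes numbered 560 and 553 in place of 371. For nrpe1 against idn2 it was 0 in place of 1 with no filter on low values and with no intensity trend, 2 with median-of-ratios scaling and 3 with quantile normalization, with 105, 120, 211 and 155 calls over all genes in these settings in place of 118. For the triple mutant against idn2 it was 1 (LUX) in place of 0 with median-of-ratios scaling, with 336 calls over all genes in place of 182. The cause was not tested. The triple and double mutants against WT and the triple against the double mutant gave 0 in every setting run. So did the 4 mutants as 1 group, fits left with 1 WT library not being counted. With depth as a term the 1 group had 0 calls over all genes, as had voom for the triple against the double mutant. Those 0 calls are therefore nothing particular to the clock genes.

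The number of clock genes at least 2-fold off WT was 1 to 3 in nrpe1, 1 in idn2, 0 to 1 in the triple mutant and 0 in the double when either WT library was left out; CCA1 and ELF4 in nrpe1 and PRR5 in the triple mutant joined without WT replicate 2. With either WT library gone no residual degree of freedom was left in the fit per genotype, so calls there were not counted.

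Small differences that did not pass limma changed sign. Against WT in the triple mutant, quantile normalization gave -0.0148 for CCA1 and 0.0197 for LUX, and median-of-ratios scaling gave 0.0471 for PRR7 in idn2. Between the triple and double mutants, median-of-ratios scaling gave 0.158 for RVE8, 0.0532 for PRR7, 9.04e-05 for GI and 0.0543 for LUX, and quantile normalization 0.153 for RVE8, 0.0501 for TOC1 and 0.144 for LUX; in that comparison the median over all genes was -0.13 as deposited and 0.04 with median-of-ratios scaling. For the 4 mutants as 1 group, leaving out 1 library at a time gave -0.341 to 0.0407 for CCA1 and -0.408 to 0.0424 for RVE8, each highest without nrpe1, and -0.0695 (without WT replicate 1) to 0.609 (without WT replicate 2) for ELF4, with -0.0125 without nrpe1. A lone WT library was assumed to vary like the mutants. PRR9 stayed between 0.39 and 0.58 there, at adjusted p between 0.294 and 1.00.

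No paired analysis was possible because the mutants have 1 library each and share fewer than 2 replicate numbers with WT. Depth limits ELF4, PRR5 and LUX, with 7 to 120 reads per library.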

Other observations

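ELF4 and NRPE1 are neighbours on chromosome 2, which was looked at after the ELF4 values were seen. In TAIR8 10711 bases and 3 genes lie between NRPE1 (AT2G40030, 16721572 to 16730661) and ELF4 (16741372 to 16741990). In the library labelled nrpe1, ELF4 had 14.6 RPKM against 4.67 and 8.08 in WT, and NRPE1 itself had 4.92 RPKM (138 reads) against 2.14 and 3.72 in WT. Of the genes between them, CLC2, a clathrin light chain gene, had 88.1 RPKM against 85.1 and 70.3, AT2G40070 had 23.0 against 20.1 and 21.3, and AT2G40050 had 4 reads against 1 and 2. None of the 4 tested genes of this stretch passed limma (adjusted p = 0.998 for NRPE1, CLC2 and AT2G40070 and 0.338 for ELF4). Whether position has a part in the ELF4 level was not tested.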
